A study of Rattus norvegicus with 40 samples.

Results

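Icam1, Vcam1, Cd274, Cd40, Cd69, Cd80 and Cd47 encode surface molecules through which cells adhere to leukocytes and signal to T cells and macrophages. They were followed in INS-1E, a clonal insulin-secreting line derived from a rat insulinoma, which the labels call INS1. The 7 genes were chosen by name, with earlier results of these data known. Each was represented by 1 probe set carrying its symbol, out of 16587 gene symbols measured on Affymetrix Rat ST arrays. Control arrays (15) came from cells kept in medium alone, with 2 arrays at 0 and 1 h and 1 array at each of 2, 4, 6, 8, 10, 12, 24, 36, 48, 60 and 72 h. Cytokine arrays (25) came from cells exposed to recombinant human IL-1 at 10 units/ml together with recombinant murine IFN-γ at 100 units/ml, with 2 arrays at each of these times except 10 h, which has 1. The series design text calls the first cytokine IL-1β, while a characteristic of the cytokine arrays names IFN-beta beside IFN-γ; here the cytokines are taken from the design text, titles and treatment protocol. Islets are named in the extraction protocol, but the source of each sample is given as the line.

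ICAM-1 and VCAM-1 are immunoglobulin-superfamily adhesion molecules that bind the leukocyte integrins LFA-1 and VLA-4, and NF-kB and interferon-γ signalling are known to induce them on endothelium. PD-L1, the product of Cd274, restrains T cells through PD-1 and is a known target of interferon-γ, whereas CD80 binds CD28 and CTLA-4, and CD40 receives CD40 ligand from helper T cells and signals to NF-kB. CD69 is a C-type lectin best known as an early activation antigen of lymphocytes, and CD47 is a broadly expressed molecule that binds SIRPα on macrophages and inhibits phagocytosis.

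Promoter windows from RefSeq on build GRCr8, of 300 bases each (250 before and 50 after a start site), were found for 5 of the 7 genes, with 2 windows for Cd80. Those of Icam1 and Cd274, both raised by cytokines, and of Vcam1, whose signal was not called different, are shown on the strand of the gene (Icam1 at chr8:27829595-27829894 on the plus strand, Cd274 at chr1:236529982-236530281 on the plus strand, Vcam1 at chr2:206742734-206743033 on the minus strand). Capitals mark matches to 4 motifs searched on both strands: the NF-kB consensus, the interferon-γ activated site TTCNNNGAA, the core of the interferon-stimulated response element GAAANNGAA, and the AP-1 motif TGANTCA.
Icam1: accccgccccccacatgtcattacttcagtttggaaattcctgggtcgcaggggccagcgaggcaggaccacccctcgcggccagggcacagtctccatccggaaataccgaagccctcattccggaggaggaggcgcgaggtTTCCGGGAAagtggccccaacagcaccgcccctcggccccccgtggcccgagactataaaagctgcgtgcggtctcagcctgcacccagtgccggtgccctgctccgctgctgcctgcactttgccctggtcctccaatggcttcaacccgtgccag
Cd274: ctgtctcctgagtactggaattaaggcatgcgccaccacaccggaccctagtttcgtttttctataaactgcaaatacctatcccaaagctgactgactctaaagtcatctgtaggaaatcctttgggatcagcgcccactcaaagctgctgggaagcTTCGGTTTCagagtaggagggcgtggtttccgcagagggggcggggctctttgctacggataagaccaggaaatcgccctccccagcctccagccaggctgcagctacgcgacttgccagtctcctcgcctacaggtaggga
Vcam1: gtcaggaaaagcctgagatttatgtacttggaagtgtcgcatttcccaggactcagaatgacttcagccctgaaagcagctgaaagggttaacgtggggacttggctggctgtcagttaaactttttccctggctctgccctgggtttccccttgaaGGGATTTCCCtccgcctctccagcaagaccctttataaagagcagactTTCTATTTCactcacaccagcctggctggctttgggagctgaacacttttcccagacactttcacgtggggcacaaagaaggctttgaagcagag
The Icam1 window held 1 activated-site match, whose first base lay at position -107 from the start site, a motif found in 8.87% of all 33469 windows of this length. The Cd274 window held 1 response-element core on the opposite strand, at position -92 (9.71% of all windows hold one). The Vcam1 window held 1 stretch that matches the NF-kB consensus on either strand, at position -93 (4.18% of all windows), and 1 response-element core at position -45. None of the motifs was found in the Cd47 window, 1 activated site was found in one Cd80 window and 1 response-element core in the other, and no AP-1 match (7.33% of all windows) was found in any of these windows. Only exact matches were searched, so a stretch that departs from a motif by a single base is not marked. For example, tggaaattcc in the Icam1 window departs from the NF-kB consensus in its first base alone. A window without a match is thus not shown to lack a site. These matches are descriptions of letters, and binding was not measured.

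The deposited values were log2 signals, with array medians between 6.54 and 6.62 and pairwise correlations of arrays across probe sets between 0.971 and 0.996. The insulin gene Ins1 lay between 14.08 and 14.46 in control arrays and between 13.49 and 14.41 in cytokine arrays, so the beta cell label was borne out on every array. Cytokine minus control differences were tested over an early (1, 2 and 4 h), an intermediate (6, 8, 10 and 12 h) and a late window (24 to 72 h) with limma, and "called" means that p, after Benjamini-Hochberg adjustment over the 16587 symbols, was under 0.05. A window's difference averages its times equally, while its mean ± SD is over its arrays and includes change between times. Where the array left out was the only one of its arm at a time, that time left the window in both arms. The window then averages other times, so such a value is not a test of that array alone. The design text places the experiments on 2 occasions, but no label ties an occasion to a replicate number or says that replicates came from separate cultures, so the p-values cover the array-to-array spread seen here, possibly technical. All control arrays after 1 h are replicate 1. The fit of replicate 1 arrays alone had 1 mean per time and 1 cytokine effect per window. Its spread thus takes in change of the effect within a window, so a call lost there does not show that replicates disagree. In bulk RNA a change in all cells and a change in some of them cannot be told apart.

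Before exposure the 7 genes did not separate by arm. At 0 h limma called 0 of the 7, beside 0% of all genes; 0 of the 7 and 556 of all genes had an unadjusted p under 0.05, and the 7 differences ran from -0.20 (Cd40) to 0.22 (Cd274) on the log2 scale. Culture in medium alone also left the 7 without a call: comparing control arrays at 24 to 72 h with those at 0 to 12 h, limma called 0 of 7, beside 1.22% of all genes. The nearest was Cd47, which stood at 9.78 ± 0.13 (SD, n = 10) early and 10.00 ± 0.14 (SD, n = 5) late, a log2 difference of 0.21 (95% interval 0.03 to 0.38, adjusted p = 0.235).

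With cytokines, Icam1, Cd274, Cd40, Cd69 and Cd47 rose, and Vcam1 and Cd80 were not called in any window. Because the 7 were chosen with earlier results of these data known, the counts below describe them and are not a test against all genes. In the early window 5 of the 7 were called higher, beside 1.44% of all genes, and the median difference of the 7 was 0.64 against -0.02 for all genes. In the intermediate window the same 5 were called higher, beside 4.94% of all genes, with a median of 1.15 against -0.03. In the late window 4 were called higher, beside 4.51% of all genes, with a median of 0.59 against -0.04. Cd40 no longer passed in the main fit, but did with a term for replicate number. The plot of differences by window shows this order, with Cd69 at the top in each window and the intermediate value above the early and the late one for each of the 5 genes.

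**Figure D1:**
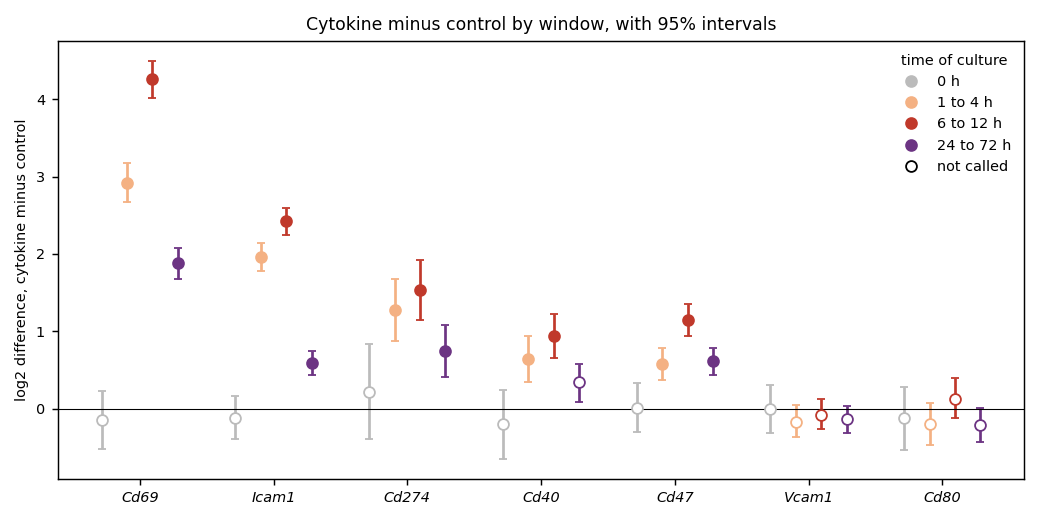
Log2 difference between cytokine and control arrays (y axis) of each of the 7 genes (x axis) at 0 h and in 3 windows of time, from the limma fit; bars are 95% intervals and open circles were not called. Cd69 reached 4.26 and Icam1 2.43 at 6 to 12 h, while every interval of Vcam1 and Cd80 included 0.

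Icam1 (probe set 25464_at), the ligand of LFA-1, was already higher at 1 h, stayed high to 12 h and came near its control level at 48 h. Control arrays lay between 6.33 (72 h) and 7.0 (48 h) throughout. Cytokine arrays stood at 6.56 and 6.41 at 0 h, 7.60 and 7.31 at 1 h, 9.08 and 9.30 at 2 h, and 9.46 and 9.53 at 4 h. Thus both cytokine arrays exceeded every control array from 1 h. They then stood at 9.29 and 9.23 at 6 h, 9.34 and 9.02 at 8 h, 9.02 at 10 h, and 8.87 and 8.82 at 12 h. The later values were 7.89 and 7.80 at 24 h, 7.23 and 7.11 at 36 h, 7.17 and 7.08 at 48 h, 7.14 and 6.85 at 60 h, and 7.07 and 6.97 at 72 h. At 60 and 72 h, 1 of the 2 cytokine arrays was below the highest control array.

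Early, Icam1 averaged 6.74 ± 0.06 (SD, n = 4) in control and 8.71 ± 0.99 (SD, n = 6) in cytokine arrays, a 3.90-fold rise (log2 1.96, SE 0.09, limma adjusted p = 3.85e-12). In the intermediate window the means were 6.65 ± 0.16 (SD, n = 4) and 9.08 ± 0.21 (SD, n = 7), a 5.39-fold rise (log2 2.43, SE 0.08, limma adjusted p = 1.79e-14). In the late window it was 1.50-fold (log2 0.59, SE 0.07, adjusted p = 7.84e-06), a call not made with replicate 1 arrays alone (log2 0.66, adjusted p = 0.0822). The largest difference at a single time was 2.75 at 4 h (6.71-fold). It was 0.13 at 48 h, where the lone control array was the highest of all 15, and 0.69 at 72 h, where it was the lowest. The late minus the intermediate difference was -1.84 (SE 0.11, limma adjusted p = 1.81e-09), whereas the step from early to intermediate, 0.47 (SE 0.12), had an adjusted p of 0.0682. Without the control 4 h array that step was 0.86 (adjusted p = 0.000486) and without the control 2 h array 0.68 (adjusted p = 0.0141). It also passed without either 10 h array (adjusted p = 0.0329), the first cytokine array of 1 h (0.0419) or the second of 8 h (0.0343).

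Vcam1 (probe set 25361_at), the VLA-4 ligand, showed no such response. Its control arrays lay between 4.66 and 5.05 and its cytokine arrays between 4.52 and 5.11, so the ranges overlapped almost fully. The log2 difference was -0.17 (95% interval -0.37 to 0.04) early, -0.08 (-0.27 to 0.12) intermediate and -0.14 (-0.31 to 0.03) late, with limma adjusted p-values of 0.667, 0.753 and 0.358. At single times it ran from -0.45 at 72 h to 0.24 at 10 h, and it was above 0 at 3 of 12 times after 0 h. These intervals do not hold a rise of the size of Cd47 or Cd40 in the intermediate window. Its mean signal over all arrays put Vcam1 in the bottom part of genes that a low-signal filter removed, and the table gives no detection call, so its distance from background is unknown.

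**Figure D2:**
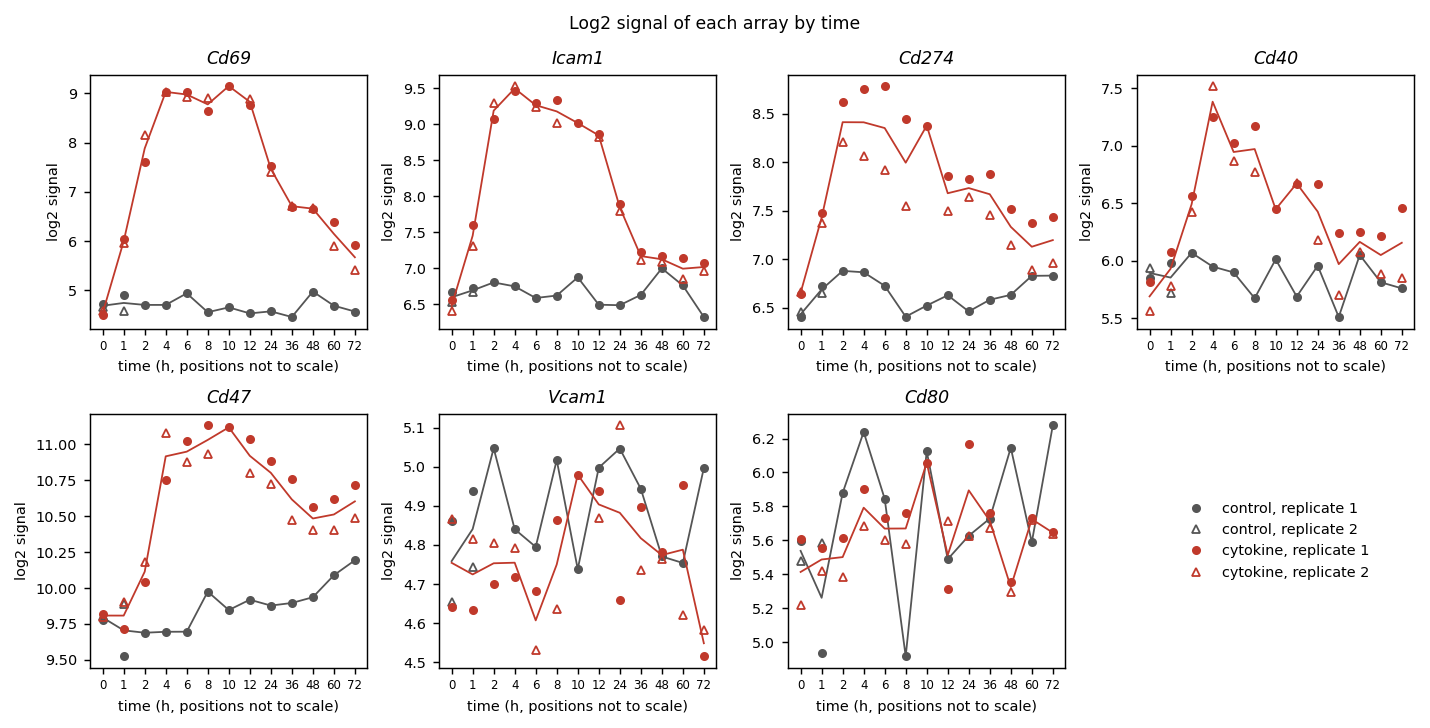
Log2 signal (y axis, own range for each gene) of every array of the 7 genes at 13 times of culture (x axis, hours, evenly spaced positions); lines join the means of control (grey) and cytokine (red) arrays, filled circles are replicate 1 and open triangles replicate 2. Cytokine arrays of Cd69, Icam1, Cd274 and Cd47 lie above all control arrays at 4 to 12 h, while those of Vcam1 and Cd80 mix with the controls.

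Cd274 (probe set 499342_at), the gene of the PD-1 ligand PD-L1, rose early and was still raised in the late window. Control arrays lay between 6.40 (0 h) and 6.88 (2 h). Cytokine arrays stood at 6.64 and 6.66 at 0 h, 7.48 and 7.38 at 1 h, 8.62 and 8.20 at 2 h, 8.76 and 8.06 at 4 h, and 8.78 and 7.92 at 6 h (replicates 1 and 2). All cytokine arrays from 1 h on were above the highest control array. At 8 h they stood at 8.45 and 7.54, at 10 h at 8.38 (replicate 1 only), and at 12 h at 7.86 and 7.50. They then fell from 7.83 and 7.64 at 24 h and 7.88 and 7.46 at 36 h to 7.52 and 7.15 at 48 h, 7.37 and 6.89 at 60 h, and 7.44 and 6.96 at 72 h. Replicate 2 was below replicate 1 at each of these times after 0 h.

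The window differences of Cd274 were 1.27 early (2.42-fold, SE 0.20, limma adjusted p = 0.000414), 1.53 intermediate (2.89-fold, SE 0.19, adjusted p = 5.57e-06) and 0.75 late (1.68-fold, SE 0.16, adjusted p = 0.00405). With replicate 1 arrays alone, the replicate of every control array after 1 h, they were 1.46, 1.80 and 0.94 (adjusted p = 0.00474, 2.84e-05 and 0.00289). The gene had the widest spread of the 7, with a residual SD of 0.34 and a gap of 0.90 between the cytokine arrays at 8 h. The largest difference at a single time, 1.86 at 10 h, rests on 1 cytokine and 1 control array, and with replicate 1 alone the largest stood at 6 h. The late minus the intermediate difference, -0.79 (SE 0.25), had a limma adjusted p of 0.117, and with a term for replicate number it was -0.74 (adjusted p = 0.0123). It was called when either replicate 2 array of the cytokine arm at 6 h (-0.89, adjusted p = 0.0449) or at 8 h (-0.90, adjusted p = 0.0404) was left out.

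Cd80 (probe set 25408_at), a ligand of CD28 and CTLA-4, was not called in any window. Control arrays ranged from 4.92 (8 h) to 6.28 (72 h) and cytokine arrays from 5.22 (0 h) to 6.17 (24 h), so the controls varied more than the cytokine arrays. The log2 difference was -0.20 (95% interval -0.47 to 0.07) early, 0.13 (-0.12 to 0.39) intermediate and -0.21 (-0.43 to 0.01) late, with limma adjusted p-values of 0.700, 0.642 and 0.268. Single times went from -0.82 at 48 h to 0.75 at 8 h, and the 2 control arrays at 1 h differed by 0.65, a gap exceeded by the differences at 8 and 48 h alone.

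Cd40 (probe set 171369_at), the receptor of CD40 ligand, rose later than Icam1 and to a smaller extent. Control arrays lay between 5.51 (36 h) and 6.07 (2 h). Cytokine arrays were at 5.82 and 5.56 at 0 h, 6.08 and 5.78 at 1 h, 6.56 and 6.42 at 2 h, and 7.25 and 7.52 at 4 h, the highest. They lay at 7.02 and 6.86 at 6 h, 7.17 and 6.77 at 8 h, 6.45 at 10 h, and 6.67 and 6.67 at 12 h. From 2 to 24 h every cytokine array exceeded the highest control. After 6.67 and 6.18 at 24 h they reached 6.24 and 5.70 at 36 h, 6.25 and 6.08 at 48 h, 6.22 and 5.88 at 60 h, and 6.46 and 5.85 at 72 h. In each of the late pairs replicate 2 was the lower, and from 36 h on, except at 48 h, it lay within the control range. With a term for replicate number, the late window difference was called (log2 0.45, limma adjusted p = 0.00278).

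In the intermediate window Cd40 averaged 5.82 ± 0.16 (SD, n = 4) in control and 6.80 ± 0.24 (SD, n = 7) in cytokine arrays, a 1.92-fold rise (log2 0.94, SE 0.14, limma adjusted p = 5.36e-05). The early value was 0.64 (1.56-fold, SE 0.14, adjusted p = 0.0185). That call rested on 4 h, where the difference was 1.43, against 0.08 at 1 h and 0.42 at 2 h: without control 4 h, and so without that time, it was 0.25 (adjusted p = 0.737). It was also not made without the first cytokine array of 1 h (adjusted p = 0.067) or of 2 h (0.0567), without the second of 4 h (0.0627), or with replicate 1 arrays alone (0.63, adjusted p = 0.327). In the late window the difference of 0.34 (95% interval 0.09 to 0.58) had an adjusted p of 0.0865, and it was called without cytokine replicate 2 of 24 h (0.38, adjusted p = 0.0495), 36 h (0.39, 0.0398) or 72 h (0.40, 0.031), and with quantile normalization (0.37, 0.0356). The late minus the intermediate difference was -0.60 (SE 0.18, adjusted p = 0.0935), and was called without 10 h (-0.77, adjusted p = 0.0424) or cytokine 72 h replicate 1 (-0.67, 0.0345).

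Cd69 (probe set 29187_at), the lymphocyte activation antigen, had the largest differences of the 7. Control arrays lay between 4.46 (36 h) and 4.98 (48 h), as low as those of Vcam1 (4.66 to 5.05). Without detection calls their distance from background is unknown, and the folds of Cd69 start from that level. Cytokine arrays stood at 4.50 and 4.58 at 0 h, 6.04 and 5.96 at 1 h, 7.61 and 8.15 at 2 h, and 9.02 and 9.04 at 4 h. They held this level at 9.02 and 8.93 at 6 h, 8.65 and 8.90 at 8 h, 9.15 at 10 h, and 8.77 and 8.89 at 12 h. The level then declined through 7.53 and 7.41 at 24 h, 6.70 and 6.72 at 36 h, 6.65 and 6.67 at 48 h, and 6.39 and 5.90 at 60 h to 5.93 and 5.42 at 72 h. Every cytokine array from 1 to 72 h was above every control array.

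The early rise of Cd69 was 7.56-fold (log2 2.92, SE 0.12, limma adjusted p = 1.33e-12), and without control 4 h, and so over 1 and 2 h alone, the log2 value was 2.22, still called. The intermediate means were 4.67 ± 0.19 (SD, n = 4) and 8.90 ± 0.16 (SD, n = 7), a 19.2-fold rise (log2 4.26, SE 0.11, limma adjusted p = 5.6e-16). The late means were 4.65 ± 0.20 (SD, n = 5) and 6.53 ± 0.66 (SD, n = 10), a 3.67-fold rise (log2 1.88, SE 0.10, limma adjusted p = 3.16e-11). At 72 h the difference was still 1.10 (2.15-fold, with 1 control array). Cd69 was the 1 member of the 7 whose difference grew from the early to the intermediate window past the test, by 1.34 (SE 0.17, adjusted p = 0.00012), beside 1.07% of all genes called higher in that comparison. Without control 4 h this growth was 2.05, still called, and with replicate 1 arrays alone it was 1.44 (adjusted p = 0.412). It shrank from the intermediate to the late window by 2.38 (log2 -2.38, SE 0.15, adjusted p = 3.92e-09).

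Cd47 (probe set 29364_at), the SIRPα ligand, stood 0.43 above control at 2 h and 1.22 at 4 h, and remained raised to 72 h. Control arrays lay between 9.53 (1 h) and 10.19 (72 h). Cytokine arrays were at 9.82 and 9.80 at 0 h, 9.71 and 9.90 at 1 h, 10.04 and 10.18 at 2 h, and 10.76 and 11.08 at 4 h. They stood at 11.02 and 10.88 at 6 h, 11.13 and 10.93 at 8 h, 11.12 at 10 h, and 11.04 and 10.80 at 12 h. From 4 h on all were above the highest control array. The later arrays were at 10.88 and 10.72 (24 h), 10.76 and 10.47 (36 h), 10.56 and 10.41 (48 h), 10.62 and 10.40 (60 h), and 10.72 and 10.49 (72 h). The lone control arrays stood at 9.70 at 6 h and at 10.19 at 72 h, so part of the narrowing between these times lay in single control arrays. A change of controls with culture was not called by limma (adjusted p = 0.235).

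The intermediate means of Cd47 were 9.86 ± 0.12 (SD, n = 4) and 10.99 ± 0.12 (SD, n = 7), a 2.21-fold rise (log2 1.15, SE 0.10, limma adjusted p = 2.45e-08). Its late means were 10.00 ± 0.14 (SD, n = 5) and 10.60 ± 0.16 (SD, n = 10), a 1.52-fold rise (log2 0.61, SE 0.08, adjusted p = 3.52e-05). The early value of 0.58 (1.50-fold, SE 0.10, adjusted p = 0.00168) combined 0.10 at 1 h, 0.43 at 2 h and 1.22 at 4 h, and without control 4 h it was 0.26 (adjusted p = 0.61). With replicate 1 arrays alone the early value was 0.53 (adjusted p = 0.162). The growth from early to intermediate, 0.56 (SE 0.14), had an adjusted p of 0.0533, and passed without control 1 h replicate 1 (0.62, adjusted p = 0.0254), control 4 h (0.88, 0.00166), or the second cytokine array of 4 h (0.62, 0.0277), of 8 h (0.59, 0.0475) or of 12 h (0.59, 0.0463).

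The late difference of Cd47 was below the intermediate one by 0.54 (log2 -0.54, SE 0.13, limma adjusted p = 0.025). That call was not made without control 6 h (-0.50, adjusted p = 0.0866), 60 h (-0.50, 0.0703) or 72 h (-0.49, 0.073), without either 10 h array (-0.50, 0.071), without cytokine 12 h replicate 1 (-0.51, 0.0508), or with replicate 1 arrays alone (-0.51, 0.193). In this comparison 3 of the 7 genes (Cd69, Icam1 and Cd47) were called lower, beside 1.43% of all genes.

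Thus the 5 raised genes differed in timing. At 1 h the differences were 1.25 for Cd69, 0.76 for Icam1 and 0.74 for Cd274, against 0.10 for Cd47 and 0.08 for Cd40. At 48 h that of Icam1 was 0.13, against the highest of its 15 control arrays, and that of Cd40 was 0.11. Cd69 was then at 1.68, Cd274 at 0.70 and Cd47 at 0.55. The order was another at 72 h, with Icam1 at 0.69 and Cd40 at 0.40, beside 1.10 for Cd69, 0.37 for Cd274 and 0.41 for Cd47. Each of these late values rests on 1 control array. Among the 5, Pearson's r of the differences over the 13 times lay between 0.67 (Cd274 with Cd40) and 0.92 (Cd69 with Icam1 and with Cd47). The r of Vcam1 with the 5 lay between -0.25 and 0.15, and that of Cd80 between 0.15 and 0.22. The points share their control arrays and a common course in time, so these values are descriptions, and the differences in timing between genes were not tested.

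**Figure D3:**
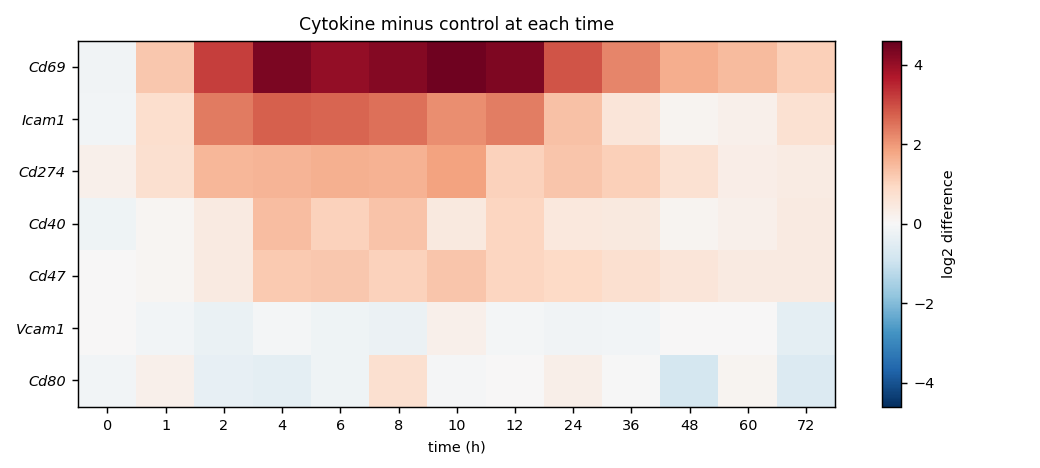
Difference in log2 signal between the mean of the cytokine arrays and the mean of the control arrays (colour, red higher with cytokines) for the 7 genes (rows) at each of 13 times (columns, hours). Cd69 passes 4 from 4 to 12 h, Icam1 is near 0 at 48 h, and Cd47 stays between 0.41 and 1.27 from 2 to 72 h.

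Over these 13 times the genes most like each raised member were found among all 16587 symbols. Cd69 was closest to the superoxide dismutase gene Sod2 (r = 0.980), the interferon signal relay Stat2 (0.979) and the T cell chemokine gene Cxcl11 (0.977). Icam1 was closest to the chemokine gene Cxcl9 (r = 0.963), the syntaxin gene Stx11 (0.963) and the cell cycle inhibitor gene Cdkn1a (0.960). The nearest to Cd47 were Ifgga4l (r = 0.988), the nucleotide kinase gene Cmpk2 (0.981) and Samd9 (0.979). For Cd274 they were the ubiquitin ligase gene Rnf31 (r = 0.960), the semaphorin gene Sema4a (0.941) and Clic4 (0.940), and for Cd40 they were Donson (0.924), Ptgfrn (0.918) and the ubiquitin ligase gene Rnf19b (0.911). With replicate 1 arrays alone these 15 values lay between 0.802 (Cd40 with Donson) and 0.981 (Cd69 with Stat2).

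Other molecules of T cell contact responded in part. The list of 28 further costimulators, coinhibitors and related molecules also held the enzyme gene Ido1. Of the 28, 2 were higher early, 5 higher and 1 lower in the intermediate window, and 4 higher and 2 lower late. Of all genes, 1.44%, 4.94% and 4.51% were called higher in the 3 windows, and 4.11% and 4.22% lower in the last 2. The median of this list was 0.05, 0.08 and 0.01 on the log2 scale, against -0.02, -0.03 and -0.04 for all genes. Tnfsf10, which encodes the death ligand TRAIL, rose 10.9-fold in the intermediate window (log2 3.45, SE 0.21, limma adjusted p = 1.92e-10). Il15, a growth factor gene for T and NK cells, rose 6.38-fold there (log2 2.67, SE 0.17), and Lgals9, whose product galectin-9 binds TIM-3, 4.18-fold (log2 2.06, SE 0.20). In the late window these 3 stood at 2.49, 1.64 and 1.79. The early calls of Tnfsf10 (1.81) and Il15 (1.34) were lost without control 4 h (1.00 and 0.70, adjusted p = 0.135 and 0.304) and with replicate 1 arrays alone (1.95 and 1.35, adjusted p = 0.0832 and 0.24).

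The next 3 genes were singled out after their values were seen. Cmtm6, whose product keeps PD-L1 at the cell surface, rose 1.76-fold in the intermediate window (log2 0.82, SE 0.12, limma adjusted p = 5.05e-05). Cd55, a regulator of complement, fell by 0.45 in the intermediate (adjusted p = 0.00452) and by 0.59 in the late window (adjusted p = 5.54e-05). The intermediate call of Cd55 was lost without control 8 h (-0.37, adjusted p = 0.0626) or 12 h (-0.38, 0.0559). Cd86, the other ligand of CD28, was called lower late at -0.30 (adjusted p = 0.048), a call lost under 32 of 45 alternatives, with adjusted p-values up to 0.151.

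Of 37 other adhesion molecules, 0 were called early (4 at an unadjusted p under 0.05), 5 were higher and 3 lower in the intermediate window, and 7 were higher and 4 lower late. These shares stand beside 4.94% of all genes higher and 4.11% lower in the intermediate window, and 4.51% and 4.22% late. In the intermediate window the integrin subunit genes Itgav and Itga3 rose by 0.66 (SE 0.08) and 0.76 (SE 0.11), and the nectin gene Nectin2 by 0.78 (SE 0.11). Late, Ceacam1 rose by 0.60 (SE 0.07, limma adjusted p = 3.47e-06) and the junctional adhesion molecule gene F11r by 0.44, while the integrin subunit gene Itga6 fell by 0.42 (adjusted p = 0.00284). The list medians were 0.00, -0.05 and -0.05.

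Partners of CD40 and CD47 signalling rose in 3, 4 and 3 of 14 measured cases in the 3 windows and fell in 0. Of all genes, 1.44%, 4.94% and 4.51% were called higher in these windows. The medians of the partner list were 0.03, 0.02 and 0.20. Birc3, of smallest p in this list in each window, rose by 1.32 early, 2.33 intermediate and 1.59 late. Its limma adjusted p-values were 4.86e-07, 8e-12 and 6.38e-10, and each of these calls held under all 46 alternatives. Nfkb2, the precursor of the p52 NF-kB subunit that CD40 is known to activate, rose by 1.48 in the intermediate window (2.78-fold, SE 0.11, limma adjusted p = 5.61e-09) and by 1.20 late, and the ubiquitin ligase gene Birc2 by 0.72 in the intermediate window. Early, Nfkb2 stood at 0.57 and Birc2 at 0.48, calls lost without control 4 h (0.39 and 0.32, adjusted p = 0.447 and 0.444) and with replicate 1 arrays alone (0.49 and 0.32, adjusted p = 0.397 and 0.543); that of Nfkb2 was also lost without control 2 h (0.45, 0.227). Sirpa, the receptor gene of CD47, was called late at 0.29 (SE 0.08, adjusted p = 0.0172), but not without control 48 h (0.27, adjusted p = 0.0646) or with replicate 1 arrays alone (0.24, 0.0891). Relays of interferon and IL-1 signalling rose in 10, 13 and 11 of 23 cases and fell in 0, beside the same shares of all genes. Their medians were 0.36, 0.44 and 0.20. Among them Irf1 rose by 4.24, 3.82 and 2.64 in the 3 windows, and Nfkbia by 1.56, 1.97 and 1.37. Stat2 rose 8.75-fold in the intermediate window (log2 3.13, SE 0.16). Irf9, an interferon signal relay gene, rose by 2.19 early and by 1.27 late.

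**Figure D4:**
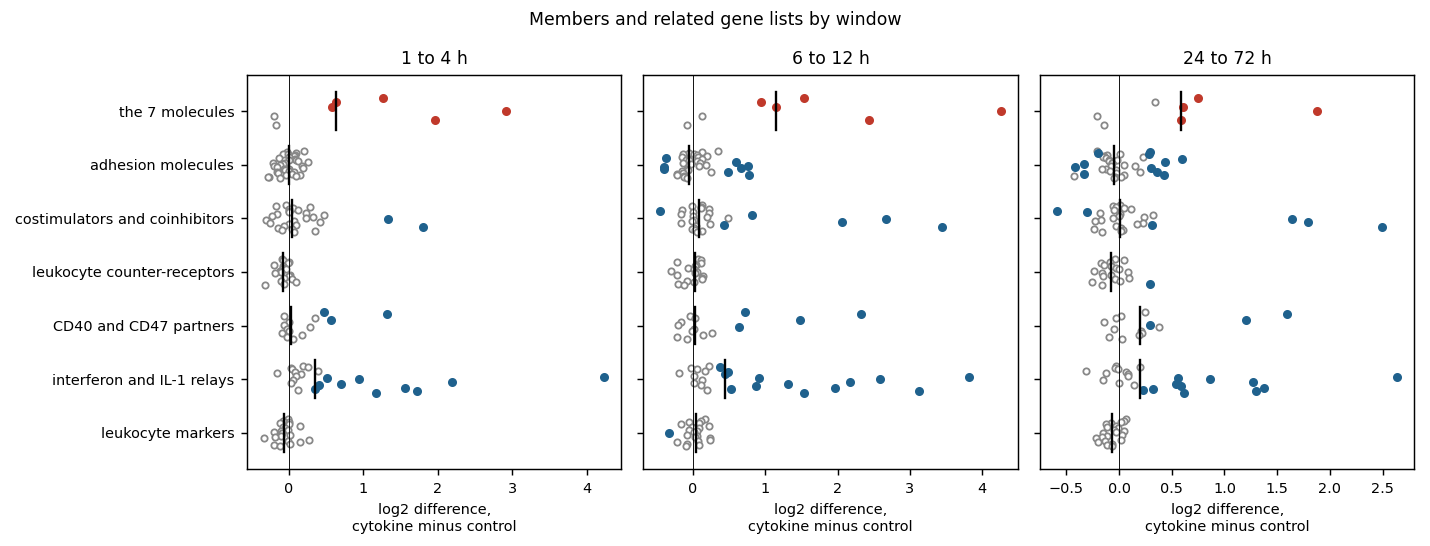
Log2 difference between cytokine and control arrays (x axis) of every measured gene of the 7 and of 6 related lists (rows) in 3 windows (panels); filled points were called, open points were not, and the vertical bar is the median of the list. In the intermediate window the medians are 1.15 for the 7 molecules, 0.44 for the relays and 0.03 for leukocyte counter-receptors.

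Leukocytes carry the binding partners of these molecules and express Cd69, Cd40 and Cd80 themselves, so their markers were examined. Of 19 leukocyte counter-receptor genes, 0 were called early (1 at an unadjusted p under 0.05), 0 in the intermediate window (3 unadjusted) and 1 late, which was Sirpa. Of 22 leukocyte markers, 0 were called higher in any window (3 had an unadjusted p under 0.05 in each); Coro1a, an actin regulator gene, was called lower at -0.33 in the intermediate window (adjusted p = 0.0146, and not without control 8, 10 or 12 h, at 0.0568, 0.0738 and 0.0927, or cytokine 10 h, at 0.0738, or with replicate 1 arrays alone, 0.162). The pan-leukocyte gene Ptprc lay between 3.72 and 4.48 in control arrays and between 3.80 and 4.35 in cytokine arrays, and the T cell gene Cd3e between 3.88 and 4.74 and between 3.86 and 4.50. The log2 of the summed signal of the 22 markers lay between 9.90 and 10.06 in control and between 9.85 and 9.95 in cytokine arrays at 6 to 12 h. The part of leukocyte RNA in the values of the raised genes was not tested.

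Markers of other cells were called in a few cases. Of 9 endothelial markers 0 were called in the 3 windows, with 2, 1 and 1 at an unadjusted p under 0.05. Of 9 stromal markers, Thy1 was lower in the intermediate (-0.38, adjusted p = 0.00374) and late window (-0.39), and Fn1 was lower late (-0.45, adjusted p = 0.0161, and 0.0691 without control 36 h). Of 9 acinar and duct markers, Ctrb1 was lower at -0.76 and Krt7 higher at 0.45, both late. Beta cell markers were called lower in 4 of 14 cases in the intermediate window and in 6 of 14 late, beside 4.11% and 4.22% of all genes. Among them Slc30a8 stood at -0.55 (limma adjusted p = 0.00134) and Slc2a2 at -0.29 (limma adjusted p = 0.00454) in the intermediate window. The prohormone convertase gene Pcsk1 stood there at -0.62 (limma adjusted p = 0.0158, and 0.124 without control 12 h) and late at -1.18. Ins2 stood at -0.64 and Nkx6-1 at -0.43 late. Over all arrays the log2 of the summed signal lay, in control and cytokine arrays, between 9.02 and 9.26 and between 8.98 and 9.50 for the endothelial list, between 11.55 and 12.09 and between 11.27 and 11.94 for the stromal list, and between 15.75 and 16.07 and between 15.55 and 15.96 for the beta cell list. The part of these changes in the values of the 7 genes was not tested.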

How the data were processed

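Rat INS-1E RNA was measured on 40 Affymetrix arrays. The values are log2 signals as the authors deposited them, 1 per probe set; the normalization is not given in the sources used here, and the array medians (6.54 to 6.62) show that arrays were put on a common scale. Of 19239 probe sets, 16592 carried 1 symbol and 2647 none; where a symbol had several probe sets, the one with the highest mean signal was kept, leaving 16587 symbols. The model had 1 mean per treatment and time (26 groups, of which 12 hold 1 array), fitted with limma 3.58.1 in R 4.3.3, with Benjamini-Hochberg adjustment over all symbols and a threshold of 0.05. The scripts were tested on simulated data. The molecules and lists were chosen with earlier results of these data known. Companion genes were named as up to 3 called genes of smallest p per list and window, and likest genes by Pearson's r over 13 times. Alternatives were a replicate block (a term for replicate number), quantile normalization, median centring, leaving out the genes of lowest mean signal, trended robust moderation, replicate 1 arrays alone and leaving out each array. The fit of replicate 1 arrays alone was another model, with 1 mean per time and 1 cytokine effect per window. The number of arrays limits the precision.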

Additional observations from a re-analysis of the deposited data

Results flagged for a closer look

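Of the 7 genes, 3 had cytokine effects that differed between windows of time by a test of the difference itself. Of all genes, 1.07% were called higher from the early to the intermediate window, and 1.43% lower from the intermediate to the late one. The 7 were chosen with earlier results of these data known, so this count is not a test against all genes. For Cd69 the log2 difference was larger in the intermediate than in the early window by 1.34 (limma adjusted p = 0.00012). Between the intermediate and the late window it changed by -2.38 (adjusted p = 3.92e-09). For Icam1 the late difference departed from the intermediate one by -1.84 (adjusted p = 1.81e-09), and for Cd47 by -0.54 (adjusted p = 0.025). The call of Cd47 depended on single arrays or times, as given with its values.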

How the results depend on the processing

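No call among the 49 results for the 7 genes (7 genes in 7 comparisons) changed sign under the alternatives run. The intermediate calls held under every one. Differences that were not called could change sign, as for Cd80 in the intermediate window (0.13, with alternatives from -0.07 to 0.24). With a replicate block, genes lower were 26 early and 1034 in the intermediate window, the step from early to intermediate had 3 of the 7 called higher and 97 genes called lower, the step to the late window had 5 of the 7 lower, 275 genes higher and 359 lower, and late control culture had 369 higher and 566 lower. Among the 7, the block added calls for late Cd40 (0.45, adjusted p = 0.00278), for Icam1 (0.47, 0.0171) and Cd47 (0.56, 0.0343) in the step from early to intermediate, and for Cd274 (-0.74, 0.0123) and Cd40 (-0.58, 0.021) in the later step. The labels do not say that a number marks a shared occasion, and over 91 pairs of groups the correlation of same-numbered deviations ran from -0.17 to 0.43 (median 0.21), with 68 over 0.1. Since not every pair was over 0.1, the block was not taken as the main result. That rule does not show that replicates of 1 number share no effect. Among 14 groups of 2 arrays, replicate 2 was the higher in 2 for each of Icam1, Cd274 and Cd80 and in 3 for Cd40. Controls after 1 h lack replicate 2, so a replicate effect would enter the main differences of these genes. With replicate 1 arrays alone, genes higher were 2 at 0 h and 96 early, with 1 lower and 3 of the 7 higher early; the step from early to intermediate had 0 of the 7 higher, 66 genes higher and 7 lower, the later step 72 and 117, and late control culture 299 and 358. Quantile normalization gave 13 genes lower early and 2 of the 7 higher in the step from early to intermediate. In that step leaving out the genes of lowest mean signal gave 3 of the 7 higher and trended robust moderation 2; in late control culture they gave 233 and 200 genes lower.
Leaving out single arrays, and with a lone array its time, moved the 7 from 3 to 5 called higher early and 4 to 5 late. In the step from early to intermediate they ran from 1 to 3 called higher, and in the later step from 2 to 4 called lower. The 3 early calls came without control 4 h, and so without that time. Gene counts, higher and lower, ran from 0 to 57 and 0 to 35 at 0 h, 90 to 273 and 5 to 79 early, 666 to 838 and 346 to 746 intermediate, 545 to 781 and 403 to 745 late, 104 to 306 and 5 to 113 in the step from early to intermediate, 76 to 194 and 158 to 269 in the later step, and 3 to 130 and 8 to 247 in late control culture. A background correction could not be varied, because scanner files were not used here.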
